A study of Mus musculus with 6 samples.

Results

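Integrins and laminins were followed as 33 of the 34 genes of the crypt RNA-Seq table, which lists 18049 genes in all, whose symbol is that of an integrin alpha chain (15 genes described), an integrin beta chain (8 genes) or a laminin chain (10 genes). *Itgam* and *Itgae* were left out of the rule. The chains were placed in 4 classes. Placed by where they are known to be made were 7 epithelial chains (*Itga2*, *Itga3*, *Itga6*, *Itgb4*, *Itgb6*, *Lama3*, *Lamb3*), 8 broadly made chains (*Itgav*, *Itgb1*, *Itgb5*, *Itgb8*, *Lama5*, *Lamb1*, *Lamb2*, *Lamc1*) and 6 chains of leukocytes. The remaining 12 chains formed the class called stromal here. This name stands for the remainder, and the cells that made these chains in the samples were not tested. All 33 genes passed the filter on low values, which left 16670 genes in the test.

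The libraries were total RNA from colonic crypts of 6 C57BL/6J mice of a Lynch syndrome model, 3 control mice and 3 treated with GSK503, an inhibitor of the histone methyltransferase EZH2. Both groups carried a loxP-flanked allele that a Villin-driven Cre deletes in the intestinal epithelium, leaving it intact in other cells, and a knocked-in human *TGFBR2* sequence with a poly(A) repeat of 11 bases. Both groups were fed a Western-style diet from 8 weeks of age. For 9 weeks the treated mice received tail vein injections of GSK503 at 200 μg/kg in PBS, and the control mice received 20% captisol in PBS. The ages of the mice at collection are not given in the sources used here. There was 1 library per mouse.

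Integrins are receptors built from 1 alpha and 1 beta chain that hold cells to the extracellular matrix and signal inside the cell. Laminins are trimers of an alpha, a beta and a gamma chain and are the main adhesive proteins of the basement membrane, the sheet on which the gut epithelium sits. In epithelia, the laminin that holds the α3 and β3 chains is bound by integrin α6β4 in the hemidesmosome, which ties the sheet to keratin filaments. Crypt cells also use integrins that contain β1, joined to α2, α3 or α6. The α1, α5, α7, α8, α9 and α11 integrins and the laminin α2 and α4 chains are best known from fibroblasts, muscle and vessels, and the β2 and β7 integrins from blood cells.

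The values are count values scaled to library size (CPM) by trimmed mean of M-values (TMM) method, and the libraries held an estimated 108143183 to 135081360 counts. Epithelial markers were high in all 6 libraries, with summed levels of 9565 to 10455 CPM in control and 10029 to 11670 CPM in GSK503-treated mice. GSK503 mouse 3 stood apart in the markers of other cells. All 8 smooth muscle markers were highest in it, and their sum was 127 CPM there, 5.72 and 4.84 CPM in GSK503 mice 1 and 2 and 21.9 to 93.4 CPM in the control mice. *Xist* was at most 0.936 CPM in control mice and at least 825 CPM in GSK503-treated mice, and the Y-linked *Uty* was at least 42.5 and at most 1.1 CPM. The sex of the mice and the treatment therefore cannot be told apart in any comparison below. This holds for all 33 genes, although none of them lies on the X or Y chromosome. *Ezh2* itself, whose protein the drug inhibits, was at 46.7, 37.4 and 46.5 CPM in control and 36.6, 35.2 and 36.3 CPM in GSK503-treated mice (log2FC -0.27, adjusted *P* = 0.291, limma).

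EZH2 deposits a repressive histone mark that is found mostly at promoters rich in CpG dinucleotides, so the CpG content of the promoters was read for the chains that could be matched. RefSeq promoters (GRCm38.p6) were matched for 21 of the 33 genes, in 24 windows of the 250 bases before a transcription start. The promoters of *Lamb3*, an epithelial laminin chain, and of *Itgb1*, the common partner of the epithelial alpha chains, are shown because they lie toward opposite ends in CpG content. Capitals mark the CpG dinucleotides, and both sequences are on the plus strand, 5′ to 3′. *Lamb3* is at chr1:193301744-193301993 and *Itgb1* at chr8:128685404-128685653.
Lamb3: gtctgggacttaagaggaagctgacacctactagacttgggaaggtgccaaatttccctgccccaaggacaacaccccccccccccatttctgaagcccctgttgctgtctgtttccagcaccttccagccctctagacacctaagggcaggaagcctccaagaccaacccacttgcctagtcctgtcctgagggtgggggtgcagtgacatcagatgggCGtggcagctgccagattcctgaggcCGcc
Itgb1: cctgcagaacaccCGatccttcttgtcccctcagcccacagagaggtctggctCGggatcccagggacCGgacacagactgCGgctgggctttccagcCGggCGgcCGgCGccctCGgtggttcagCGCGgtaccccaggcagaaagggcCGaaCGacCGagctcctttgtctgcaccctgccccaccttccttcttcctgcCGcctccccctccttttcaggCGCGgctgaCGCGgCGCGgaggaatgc
The *Lamb3* window holds 2 CpG and the *Itgb1* window 21, beside a median of 6 and quartiles of 2 and 16 over all 32851 windows of this length. A second *Lamb3* start gave a window with 3 CpG. *Lama3* and *Itga6*, described next, are named without a sequence. On both strands, the AP-1 heptamer TGACTCA was in 1 of the 24 windows (*Itgax*) and in 4.46% of all windows. TATAAA was in 0 of the 24 windows and in 12.4% of all, and the E-box CACGTG in 0 of the 24 and in 6.02% of all.

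Per kilobase of the canonical transcript, receptor chains led the levels in control crypts. *Itga6* stood first at 93.2 ± 5.91 CPM per kb (SD, *n* = 3), followed by the broadly made *Itgb1* at 64.4 ± 3.13, and the ranges of these neighbours were apart. *Itgb4* (34.7 ± 1.58 CPM per kb), *Itga3* (34.1 ± 1.91) and *Lamb3* (32.6 ± 2.64) came next, and each overlapped its neighbour in this order. *Itga2* was at 11.8 ± 1.81 CPM per kb and *Itgb6*, which pairs with αv, at 9.54 ± 0.722. Of the epithelial chains, *Lama3* stood lowest at 2.84 ± 0.167 CPM per kb. *Lama3* has transcripts of very unequal length, from 7228 bases for the shortest with a consensus coding sequence to 12225 for the canonical one, so its level per kb depends on the transcript chosen. The same holds for *Itga6*, whose canonical transcript of 4413 bases is its shortest with a consensus coding sequence and whose longest has 6938. Its first place above *Itgb1* therefore depends on that choice too. At the other end *Lamc3* was at 0.0114 ± 0.00994 CPM per kb. Of the 32 pairs of neighbours in this order, 9 had control ranges that were apart and 23 overlapped.

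**Figure D1:**
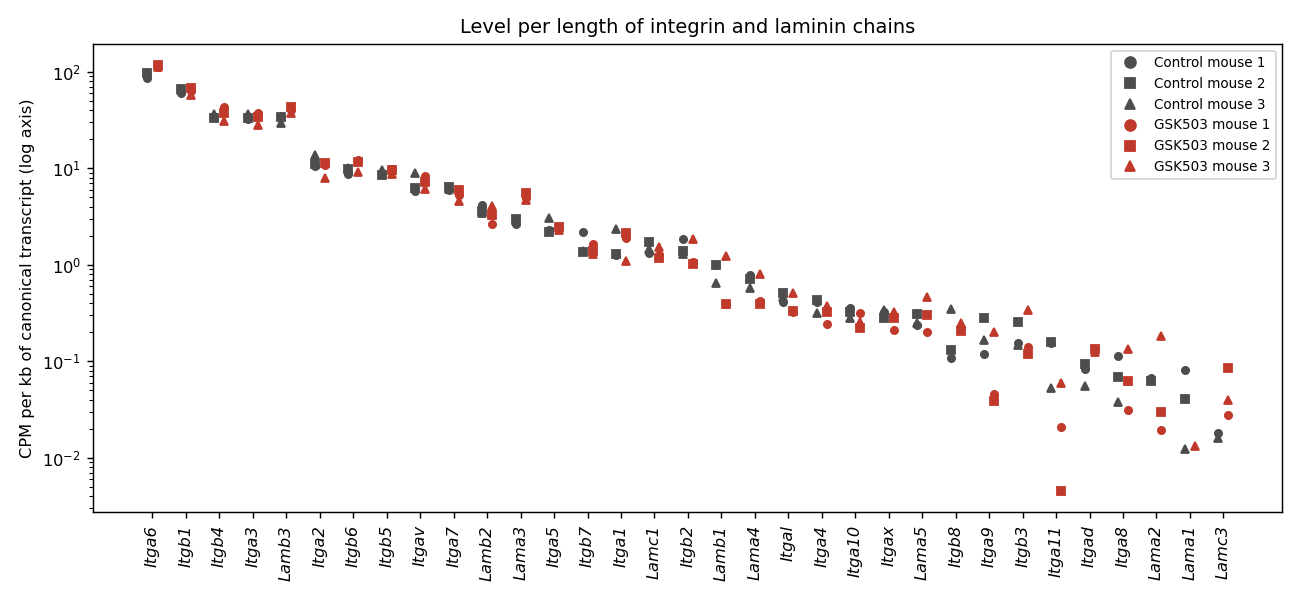
Levels of the 33 integrin and laminin chains in CPM per kb of the canonical transcript (log axis), 1 point per mouse, ordered by the control mean. Zeros cannot be drawn on this axis and are left out. *Itga6* leads at a control mean of 93.2 CPM per kb and *Lamc3* is last at 0.0114.

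Of the 33 chains, 1 was called between GSK503-treated and control crypts at an adjusted *P* under 0.05, and 0.642% of all genes tested were. This call was of a higher level (0.498% of all genes), and 0 of the 33 were called lower (0.144% of all genes). The called chain was *Lama3*, the α3 chain of the epithelial laminin, at ENSMUSG00000024421 on chromosome 18, 12466876 to 12717747 of GRCm39, plus strand. *Lama3* was at 32.6, 36.7 and 35 CPM in control and 60.3, 67.5 and 56.8 CPM in GSK503-treated crypts. All 3 treated mice lay well above all 3 control mice. Its log2FC was 0.82 ± 0.09 (SE), with an adjusted *P* of 0.00423 (limma), and 0.88 with an adjusted *P* of 0.00669 without GSK503 mouse 3. Without the intensity trend in limma, the adjusted *P* of *Lama3* was 0.123 and none of the 33 chains was called, 0 of 7 epithelial ones included.

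The β3 chain of the same laminin lay on the same side by a smaller amount and did not pass the test. *Lamb3*, its gene (chromosome 1, 192890007 to 193027705, plus strand), was at 192, 188 and 165 CPM in control and 225, 244 and 211 CPM in GSK503-treated crypts. The lowest treated mouse stood above the highest control mouse. The log2FC was 0.32 ± 0.09, with an adjusted *P* of 0.143, and 0.37 without GSK503 mouse 3 (adjusted *P* = 0.0973).

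*Itga6*, the α6 receptor chain for this laminin (chromosome 2, 71575960 to 71689757, plus strand), was at 381, 427 and 426 CPM in control and 490, 517 and 502 CPM in GSK503-treated crypts. Here too the groups did not overlap, with a log2FC of 0.29 ± 0.08 and an adjusted *P* of 0.143. *Itgb4*, the β4 chain that pairs with α6 in the hemidesmosome, was at 213, 208 and 227 CPM in control and 270, 233 and 195 CPM in treated crypts. Its groups overlapped, since GSK503 mouse 3 was the lowest of the 6 (log2FC 0.09 ± 0.11, adjusted *P* = 0.774).

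*Itgb6*, the β6 chain known for activating latent TGF-β, was at 42.0, 47.0 and 48.6 CPM in control and 59.2, 55.6 and 43.5 CPM in GSK503-treated crypts. GSK503 mice 1 and 2 were above all control mice and mouse 3 was among them (log2FC 0.19 ± 0.12, adjusted *P* = 0.531; without mouse 3, 0.33 and 0.139). *Itga3*, a laminin receptor chain, was at 161, 167 and 180 CPM in control and 186, 168 and 139 CPM in treated crypts, with a log2FC of -0.05. *Itga2*, a collagen receptor chain, was at 74.9, 78.3 and 98.7 CPM in control and 76.3, 80.1 and 56.3 CPM in treated crypts, with a log2FC of -0.25 (adjusted *P* = 0.505). Both overlapped between the groups, and GSK503 mouse 3 was the lowest of the 6 mice for each.

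**Figure D2:**
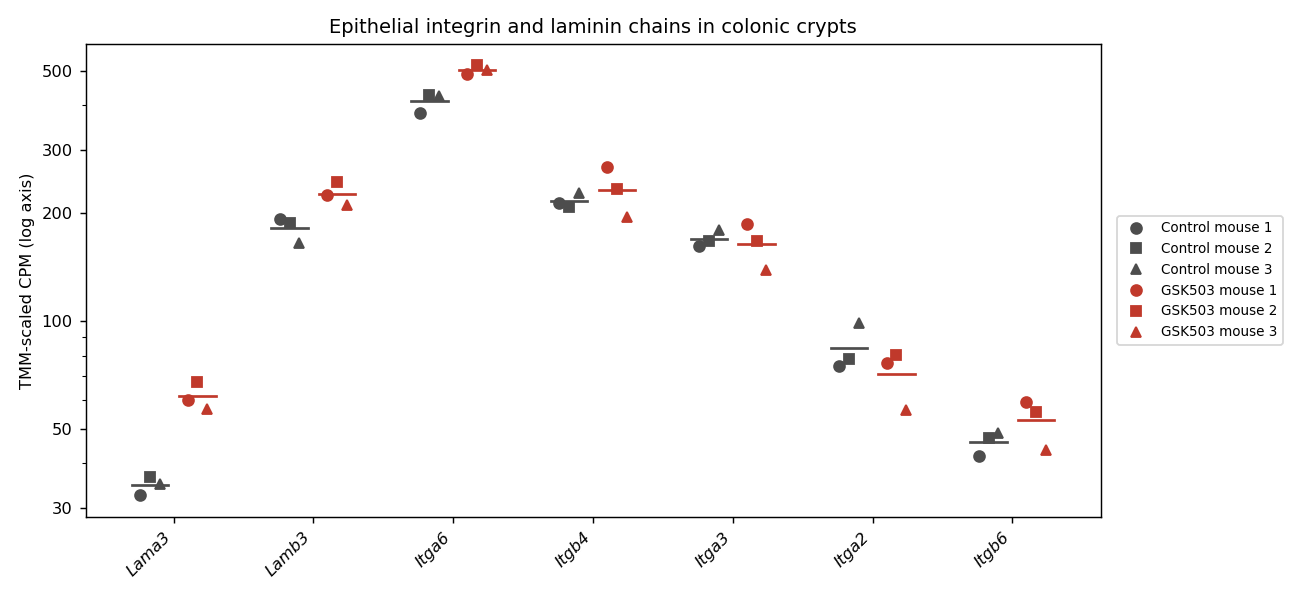
TMM-scaled CPM (log axis) of the 7 epithelial chains, 1 symbol per mouse, with a bar at each group mean. Control and GSK503-treated mice do not overlap for *Lama3*, *Lamb3* and *Itga6*, and only *Lama3* passed the test.

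Every GSK503-treated mouse was above every control mouse for 5 of the 33 chains (*Itga6*, *Itgad*, *Lama3*, *Lamb3* and *Lamc3*), 3 of them among the 7 epithelial chains, and for 9.84% of all genes tested. Every treated mouse was below every control mouse for 0 of the 33 and for 9.22% of all genes. At an unadjusted *P* under 0.05 the count was 6 of 33 against 13.3% of all genes. Of these, 4 were higher in treated mice (*Itga6*, *Lama3*, *Lamb3*, *Lamc3*), against 7.06% of all genes, and 2 were lower (*Itga11*, *Lama1*), against 6.27%. The log2FC was below 0 for 20 of the 33 chains and for 51.1% of all genes. On the TMM scale, the median log2FC was 0.19 over the 7 epithelial chains, -0.18 over the other 26 and -0.01 over all genes. Scaled to library totals, the median over all genes was -0.12, and *Itgb6*, in the middle of the 7 epithelial chains, was at 0.078. The averaged log2 level of the 6 epithelium markers was 10.2 in each control mouse and 10.4, 10.3 and 10.2 in GSK503 mice 1, 2 and 3. On the TMM scale, the mean of each of the 6 was higher in treated mice. These markers were not read under scaling to library totals. The part of these marker differences in the values of the epithelial chains was not tested.

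Ratios of chains within a library do not depend on the scaling between libraries. The ratio of *Lama3* to *Lamb3* was 0.170, 0.195 and 0.212 in control and 0.268, 0.277 and 0.269 in GSK503-treated mice. The ratio was higher in each treated mouse than in any control mouse. The α3 chain differed between the groups by more than the β3 chain did.

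Among receptors, *Itga6* to *Itgb1* was 1.25, 1.27 and 1.3 in control and 1.54, 1.51 and 1.74 in GSK503-treated mice. These did not overlap, whereas *Itga6* to *Itgb4* did, at 1.90 ± 0.132 in control and 2.20 ± 0.379 in treated mice. With 3 mice a group, an exact two-sided permutation test of any such ratio cannot go below 0.1, so no *P* value is given for them.

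The broadly made chains showed no call, and their adjusted *P* values ran from 0.606 to 0.925. *Itgb1*, the beta chain shared by most matrix receptors, was at 305, 335 and 328 CPM in control and 318, 342 and 288 CPM in GSK503-treated crypts. *Itgav*, the alpha chain of receptors for RGD-containing proteins, was at 43.2, 46.7 and 65.8 CPM in control and 61.8, 53.4 and 45.2 CPM in treated crypts. *Itgb5*, one of its partners, was at 28.2 to 32 CPM in control and 28.8 to 32.7 CPM in treated crypts. The groups overlapped for all 3, with log2FC of -0.03, 0.06 and 0.06. *Itgb8*, another αv partner, was low in both groups at 0.913 to 2.91 and 1.72 to 2.09 CPM.

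The broadly made laminin chains separated GSK503 mouse 3 from the other treated mice. *Lamb1*, the β1 chain, was at 5.78, 5.78 and 3.71 CPM in control and 2.27, 2.28 and 7.22 CPM in GSK503-treated crypts. GSK503 mice 1 and 2 were thus the lowest of the 6 and mouse 3 the highest, with a log2FC of -0.56 over all mice (adjusted *P* = 0.606) and -1.10 without mouse 3 (adjusted *P* = 0.0800). *Lamb2*, the β2 chain, was at 23.3, 20.2 and 19.3 CPM in control and 15.1, 18.3 and 23.0 CPM in treated crypts. *Lamc1*, the γ1 chain of most laminins, was at 10.5 to 13.7 CPM in control and 9.26 to 12.2 CPM in treated crypts. In both, GSK503 mice 1 and 2 lay below all other mice and mouse 3 lay within the control range. *Lama5*, the main α chain under mature gut epithelium, was at 2.69, 3.55 and 2.83 CPM in control and 2.29, 3.41 and 5.24 CPM in treated crypts, again with mouse 3 the highest. The ratio of *Lamb3* to *Lamb1* was 33.3, 32.6 and 44.4 in control and 99.1, 107 and 29.3 in treated mice, so that GSK503 mice 1 and 2 stood above the control mice and mouse 3 below them.

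**Figure D3:**
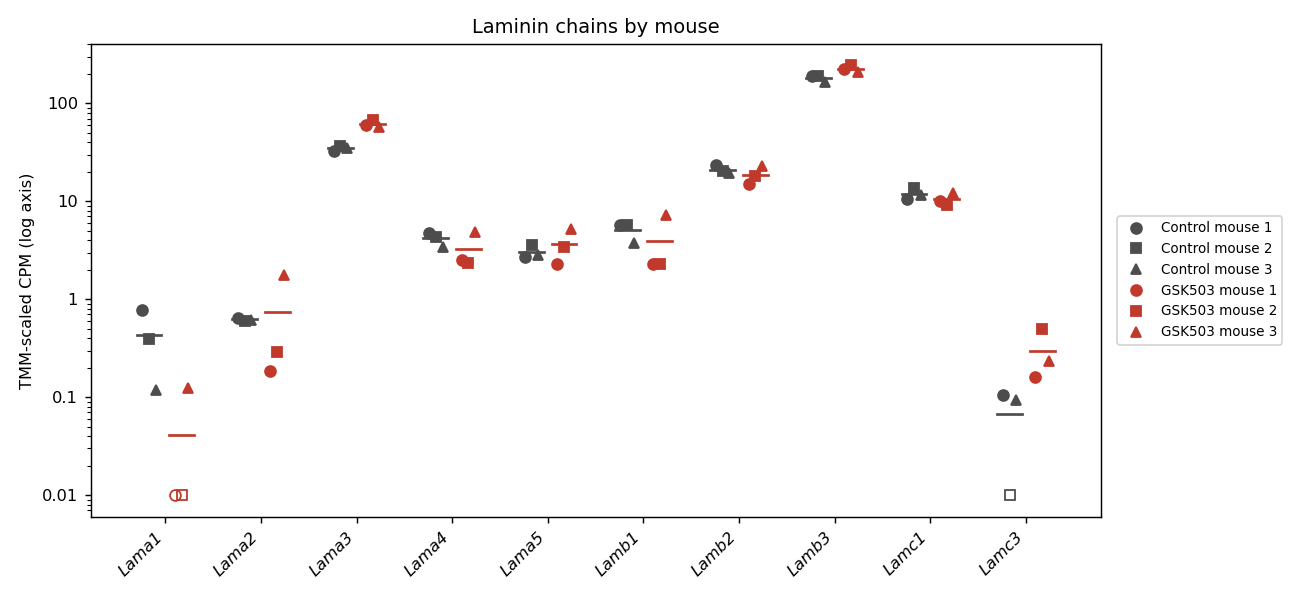
TMM-scaled CPM (log axis) of 10 laminin chains, 1 symbol per mouse, with a bar at each group mean. Open symbols at 0.01 stand for a value of 0. *Lama3* is higher in all 3 GSK503-treated mice, whereas *Lama2*, *Lama4* and *Lamb1* are lowest in GSK503 mice 1 and 2 and highest in mouse 3.

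None of the 12 chains of the stromal class was called, with adjusted *P* values of at least 0.249. For 6 of the 12, GSK503 mice 1 and 2 were both below all other mice, as for 9.58% of all genes. *Lama4*, a laminin chain of vessels, was at 4.76, 4.31 and 3.45 CPM in control and 2.53, 2.36 and 4.83 CPM in GSK503-treated crypts. *Lama2*, the chain of muscle basement membranes, was at 0.647, 0.597 and 0.622 CPM in control and 0.185, 0.287 and 1.77 CPM in treated crypts. For *Lama2* the control mice were close together, and the treated mice lay on either side of them. For *Lama4* the control mice were more spread, with GSK503 mice 1 and 2 below them and mouse 3 only just above the highest. The log2FC was -0.42 for *Lama4* and -0.29 for *Lama2* over all mice, and -0.74 and -1.12 without mouse 3.

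*Itga9*, a receptor chain for tenascin, was at 0.845, 1.97 and 1.16 CPM in control and 0.322, 0.271 and 1.43 CPM in GSK503-treated crypts. *Itga11*, a collagen receptor chain of fibroblasts, was at 0.814, 0.832 and 0.283 CPM in control and 0.110, 0.0239 and 0.316 CPM in treated crypts. For each, GSK503 mice 1 and 2 were the lowest and mouse 3 was within the control range. The log2FC on the log2(CPM + 0.1) scale, which understates the change of low genes, was -1.12 for *Itga9* (adjusted *P* = 0.432) and -1.64 for *Itga11* (adjusted *P* = 0.25). Without mouse 3 these were -1.77 (adjusted *P* = 0.0834) and -2.09 (adjusted *P* = 0.109).

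*Lama1*, a chain made mostly in the embryo, was at 0.776, 0.389 and 0.118 CPM in control, at 0 in GSK503 mice 1 and 2 and at 0.125 CPM in mouse 3. A count of 0 allows up to 0.0254 and 0.0239 CPM in the libraries of GSK503 mice 1 and 2 (3 counts per library, counting error only). The log2FC was -1.79 over all mice (adjusted *P* = 0.249). *Lamc3* went the other way at 0.107, 0 and 0.0944 CPM in control and 0.161, 0.502 and 0.233 CPM in treated crypts, without overlap (log2FC 1.24, adjusted *P* = 0.351). These 2 chains rest on few counts, and over other pseudocounts and limma-voom their log2FC ran from -4.69 to -0.43 for *Lama1* and from 0.28 to 2.80 for *Lamc3*.

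In *Itga1* and *Itga7*, GSK503 mouse 3 lay at the low end. *Itga1*, a collagen receptor chain, was at 14.0, 14.6 and 26.3 CPM in control and 21.3, 23.8 and 12.1 CPM in GSK503-treated crypts. *Itga7*, the laminin receptor chain known from muscle, was at 24.5, 26.4 and 25.3 CPM in control and 21.5, 24.5 and 18.7 CPM in treated crypts (log2FC -0.24, adjusted *P* = 0.404). Mouse 3, the library with the highest smooth muscle markers, was the lowest of the 6 for both. The part of smooth muscle in the values of *Itga1* and *Itga7* was not tested. *Itgb3*, the β3 integrin chain of platelets and vessels, was at 0.858 to 1.46 CPM in control and 0.814, 0.685 and 1.98 CPM in treated crypts, with mice 1 and 2 the lowest of the 6 and mouse 3 the highest. *Itga5*, the fibronectin receptor chain, was at 9.64 to 13.3 and 9.99 to 10.8 CPM, *Itga10* at 1.42 to 1.80 and 1.10 to 1.6 CPM, and *Itga8* at 0.260 to 0.776 and 0.212 to 0.905 CPM, all with overlap.

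None of the 6 leukocyte chains was called, with adjusted *P* from 0.509 to 0.812. *Itgb2*, the chain shared by the leukocyte β2 integrins, was at 5.47, 4.10 and 3.79 CPM in control and 3.20, 3.0 and 5.50 CPM in GSK503-treated crypts. *Itgal*, its partner on lymphocytes, was at 2.15, 2.66 and 2.44 CPM in control and 1.68, 1.74 and 2.68 CPM in treated crypts. GSK503 mice 1 and 2 were again the lowest for both, and mouse 3 was only just the highest. *Itga4* was at 3.16 to 4.25 CPM in control and 2.41 to 3.71 CPM in treated crypts, and *Itgb7*, its partner in homing to the gut, at 3.61 to 5.85 and 3.43 to 4.37 CPM. *Itgax*, a chain of dendritic cells and macrophages, was at 1.13 to 1.40 and 0.869 to 1.34 CPM, and these 3 overlapped between the groups. *Itgad* was at 0.320, 0.358 and 0.214 CPM in control and 0.512, 0.510 and 0.482 CPM in treated crypts, without overlap (log2FC 0.62, adjusted *P* = 0.509).

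**Figure D4:**
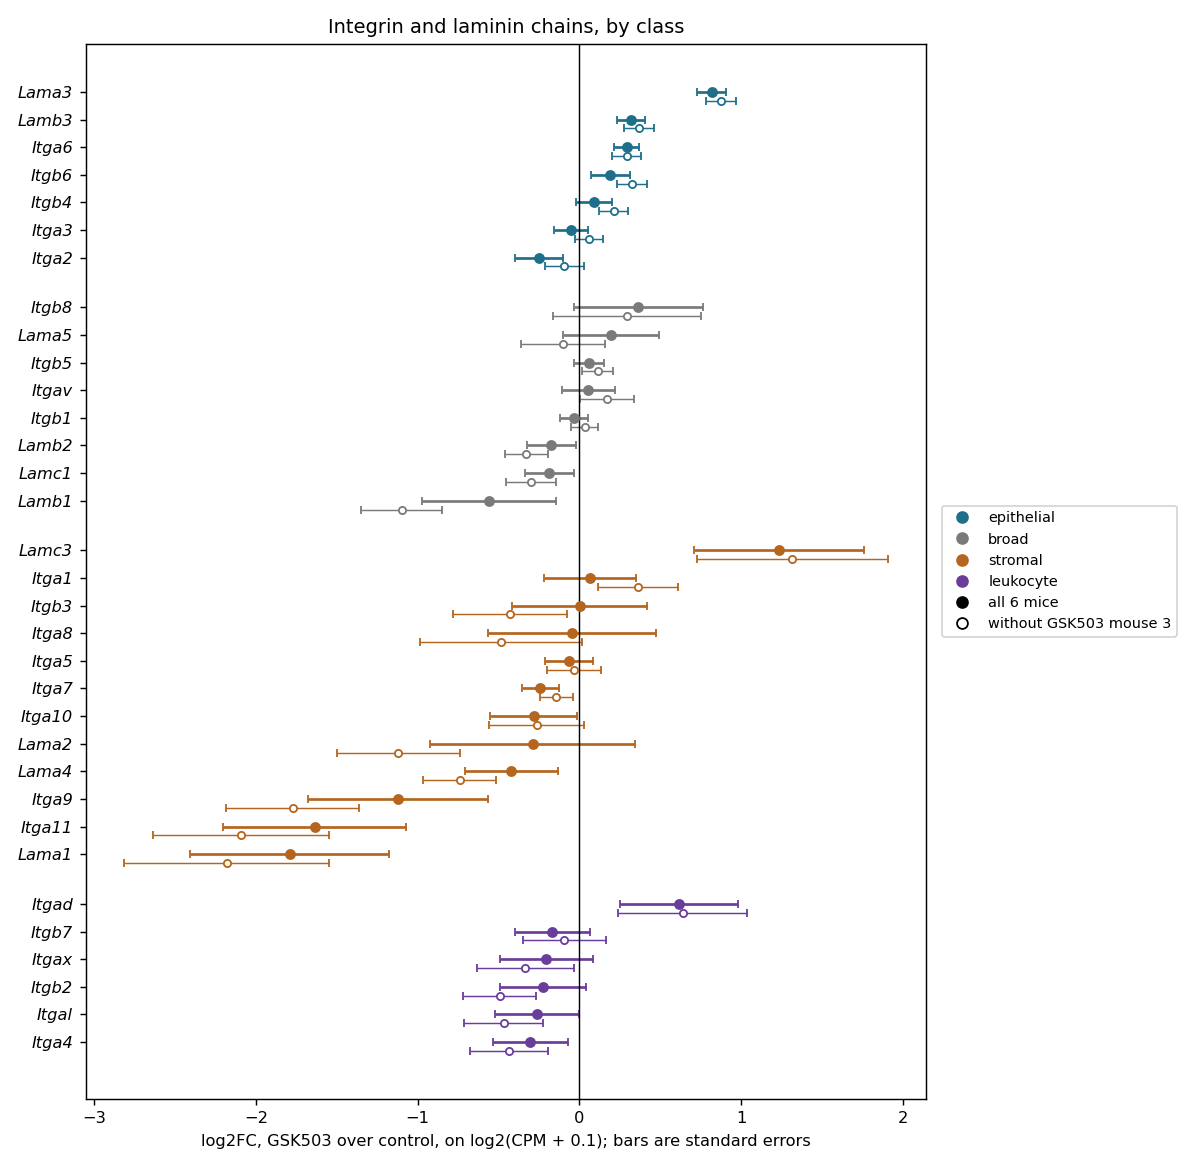
Log2 fold change of GSK503-treated over control crypts with its standard error for the 33 chains by class, over all 6 mice (filled) and without GSK503 mouse 3 (open). *Lama3* is at 0.82 and 0.88. The open point of *Lama1* depends on the pseudocount, since both remaining treated mice were at 0.

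GSK503 mice 1 and 2 were both below all 4 other mice for 11 of the 33 chains, 6 stromal, 3 broadly made, 2 of leukocytes and 0 epithelial, and for 9.58% of all genes. These were *Itga11*, *Itga9*, *Itgal*, *Itgb2*, *Itgb3*, *Lama1*, *Lama2*, *Lama4*, *Lamb1*, *Lamb2* and *Lamc1*. Mouse 3 was the highest of the 6 for 8 of the 33 chains, against 17.1% of all genes, and the lowest for 7, against 21.1%. GSK503 mouse 1 or 2 was the lowest for 16 of the 33, against 28.4% of all genes. At an adjusted *P* under 0.1 with all mice, 1 of the 33 chains passed (1.97% of all genes) and 0 passed lower (0.558% of all genes).

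Leaving out GSK503 mouse 3 gave the other treated mice against the control mice. This fit is given more room than those without another mouse because mouse 3 stood apart in these same data. Lower values, without it, of genes that are high in it follow in part from that choice. At an adjusted *P* under 0.05, 1 chain was then called (1.33% of all genes), *Lama3*, which was higher (0.714% of all genes). At 0.1, 4 passed (3.68% of all genes), of which *Lama3* and *Lamb3* were higher and *Lamb1* and *Itga9* lower, the last 2 against 1.52% of all genes. At an unadjusted *P* under 0.05 there were 12 (15.7% of all genes). Of these, 5 were higher (8.55% of all genes), all of them epithelial: *Itga6*, *Itgb4*, *Itgb6*, *Lama3* and *Lamb3*. The 7 that were lower (7.15% of all genes) were the stromal *Itga11*, *Itga9*, *Lama1*, *Lama2* and *Lama4* and the broadly made *Lamb1* and *Lamb2*. GSK503 mice 1 and 2 were both above every control mouse for 7 chains (18.7% of all genes) and both below for 11 (16.2%). The log2FC was below 0 for 20 chains, as for 49.6% of all genes.

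The classes also differed in their averaged log2 level by mouse. The stromal class was at 0.98, 0.89 and 0.66 in control and 0.17, 0.25 and 0.96 in GSK503-treated mice. The leukocyte class was at 1.26, 1.12 and 0.98 in control and 0.88, 0.96 and 1.24 in treated mice. In both averages, which weigh each chain alike, GSK503 mice 1 and 2 were below the control mice and mouse 3 was within their range. The summed stromal level, set mostly by *Itga1*, *Itga5* and *Itga7*, was 60.0, 62.2 and 73.1 CPM in control and 59.2, 64.8 and 53.7 CPM in treated mice, with mouse 3 the lowest. The summed leukocyte level was 19.2, 16.1 and 14.8 CPM in control and 13, 13.3 and 17.1 CPM in treated mice, in the same order as its average. The epithelial class ran the other way at 6.84, 6.92 and 6.97 in control and 7.20, 7.20 and 6.93 in treated mice. The broadly made class was at 3.82, 3.95 and 4.04 and at 3.75, 3.81 and 4.14.

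Marker lists of other cells were read beside these classes, and they did not all run alike. The averaged log2 level of the 8 smooth muscle markers was 0.88, 3.06 and 2.27 in control and -0.93, -1.27 and 3.56 in GSK503-treated mice, with *Lmod1* at 0 in at least 1 library. The 7 fibroblast markers were at 3.17, 3.66 and 3.31 and at 1.89, 2.15 and 4.30, with *Lum* at 0 in at least 1 library and summed levels of 218 to 276 CPM in control and 268 to 395 CPM in treated mice. The 7 endothelial markers were at 0.22, 0.22 and -0.08 and at -0.99, -1.09 and 0.89 (summed, 10.6 to 12.8 and 11.9 to 20.9 CPM). The 6 macrophage markers were at 0.78, 0.92 and 0.66 and at -0.46, -0.69 and 1.53, with *Cd163* at 0 in at least 1 library (summed, 14.2 to 20.1 and 4.32 to 29.6 CPM). The 4 pericyte markers were at 1.24, 1.76 and 1.54 in control and 0.67, 0.06 and 1.91 in treated mice (summed, 16.3 to 22.7 and 10.6 to 25.7 CPM). In all 5 lists GSK503 mice 1 and 2 had the lowest averages and mouse 3 the highest. The 7 T cell markers were at 1.05, 0.62 and 0.68 in control and 0.43, 0.57 and 0.93 in treated mice (summed, 11.7 to 18.6 and 11 to 14.3 CPM). The average of the 5 B cell markers was below every control mouse in all 3 treated mice, at 0.66, 2.23 and -0.47 in control and -0.99, -2.06 and -0.93 in treated mice (summed, 3.77 to 26.4 and 1.11 to 3.52 CPM), with *Cd79a* at 0 in at least 1 library. The 6 markers of enteric glia and neurons were at -2.41, -1.25 and -1.70 and at -1.56, -1.67 and -0.45 (summed, 1.13 to 2.31 and 1.91 to 4.19 CPM), so that GSK503 mice 1 and 2 lay within the control range. Of these 6, *Sox10*, *Gfap*, *Elavl4* and *Uchl1* were at 0 in at least 1 library. The 4 red blood cell markers were at 0.26, 0.40 and -0.60 and at -0.93, -1.55 and -0.33 (summed, 2.7 to 6.33 and 1.27 to 3.46 CPM), with *Hbb-bt* at 0 in at least 1 library. The part of these cells in the values of the stromal, leukocyte and broadly made chains was not tested. In such bulk samples, fewer cells of a type and less RNA per cell cannot be told apart.

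**Figure D5:**
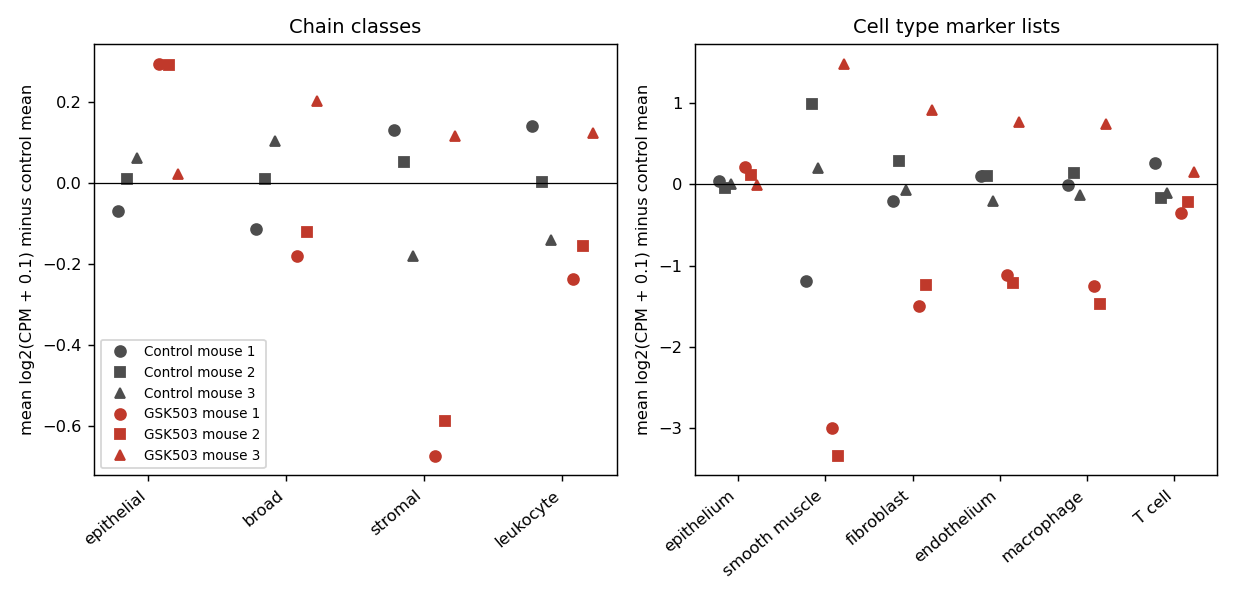
Averaged log2(CPM + 0.1) level of each of the 4 classes of integrin and laminin chains (left) and of 6 marker lists (right) in each of the 6 mice, drawn as the difference from the control mean, with unequal scales on the y axes. GSK503 mouse 3 is highest for the smooth muscle, fibroblast, endothelial and macrophage lists, and GSK503 mice 1 and 2 are lowest for them and for the stromal class.

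The genes that work with these chains were read from 4 lists. Of 12 integrin ligands tested, 1 was called (0.642% of all genes), *Fn1*, the gene of fibronectin, the ligand of α5β1 and of αv integrins. *Fn1* was at 10.9, 6.39 and 11.2 CPM in control and 25.9, 30.2 and 20.4 CPM in GSK503-treated crypts. The groups did not overlap, with a log2FC of 1.44 ± 0.22 and an adjusted *P* of 0.0240, and 1.59 without mouse 3 (adjusted *P* = 0.0221). The call was lost without GSK503 mouse 1 (adjusted *P* = 0.0719), without GSK503 mouse 2 (adjusted *P* = 0.145) and without the intensity trend (adjusted *P* = 0.214). GSK503 mice 1 and 2, in which *Fn1* was highest, had the lowest averaged fibroblast marker level, but their summed level was 268 and 348 CPM beside 218 to 276 CPM in control mice. The part of fibroblasts in the *Fn1* values was not tested. The genes of its receptor chains, *Itga5*, *Itgav* and *Itgb1*, were not called. The other ligands mostly lay on the lower side, and 9 of the 12 had a log2FC below 0 (51.1% of all genes). *Thbs1* (-0.52, adjusted *P* = 0.0880) and *Ccn1* (-0.79, adjusted *P* = 0.0741) missed the threshold. Without mouse 3, 3 of 11 were called lower (0.615% of all genes), namely *Tnc* (-3.70), *Thbs1* (-0.64) and *Ccn2* (-2.75), and these 4 genes are named after their values were seen.

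Of 14 basement membrane partners, 0 were called over all mice (0.642% of all genes) and 11 had a log2FC below 0 (51.1% of all genes). The 2 with the smallest *P* were *Agrn* and *Col4a1*, and 3 had an unadjusted *P* under 0.05 in limma (13.3% of all genes). *Agrn*, the gene of agrin, a heparan sulfate proteoglycan that binds laminin, was at 102, 104 and 105 CPM in control and 88.5, 88.3 and 83.2 CPM in GSK503-treated crypts (log2FC -0.26, adjusted *P* = 0.130). *Col4a1*, a chain of the collagen network to which laminin is joined, was at 9.90, 11.5 and 9.26 CPM in control and 2.44, 1.74 and 11.9 CPM in treated crypts. All treated mice were below the control mice for *Agrn*, and only GSK503 mice 1 and 2 were for *Col4a1*. The log2FC of *Col4a1* was -1.43 over all mice (adjusted *P* = 0.317) and -2.25 without mouse 3 (adjusted *P* = 0.00343). Without mouse 3, 3 of the 14 were called lower (*Nid1*, *Col4a1* and *Col4a2*, the first and last named after their values were seen), against 0.615% of all genes. Over the fits without 1 mouse, the log2FC of *Col4a1* ran from -2.25 to -0.90 and its adjusted *P* from 0.00343 to 0.704 (limma).

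Of the 7 genes of the hemidesmosome and of other laminin receptors, 0 were called (0.642% of all genes) and 3 had an unadjusted *P* under 0.05 in limma (13.3% of all genes). *Bcam*, a receptor for the laminin α5 chain, was at 4.57, 4.04 and 3.48 CPM in control and 5.93, 6.56 and 5.69 CPM in GSK503-treated crypts (log2FC 0.58, adjusted *P* = 0.186). *Dag1*, the gene of dystroglycan, was at 240, 236 and 269 CPM in control and 225, 226 and 194 CPM in treated crypts (log2FC -0.21, adjusted *P* = 0.345). The groups did not overlap for either gene, with *Bcam* higher and *Dag1* lower in treated mice.

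Of the 24 genes that link integrins to actin or carry their signals, 0 were called (0.642% of all genes) and 1 had an unadjusted *P* under 0.05 in limma (13.3% of all genes). This was *Tln2*, the gene of a talin, at 99.4, 81.4 and 98.4 CPM in control and 109, 127 and 100 CPM in GSK503-treated crypts (log2FC 0.27, adjusted *P* = 0.336). *Ptk2b*, the gene of a kinase related to focal adhesion kinase, was next by *P* at 71.5, 66.1 and 81.4 CPM in control and 64.3, 64.4 and 65.3 CPM in treated crypts (log2FC -0.17, adjusted *P* = 0.445). On the TMM scale, both were narrowly apart between the groups, and so narrow a gap depends on the scaling. Without mouse 3, 1 of the 24 was called lower (0.615% of all genes), *Tns1*, named after its values were seen, with a log2FC of -2.69 (adjusted *P* = 0.0415) where it was -1.57 over all mice (adjusted *P* = 0.461).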

How the data were processed

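Total RNA from colonic crypts was sequenced as paired 76-base reads, with 1 library for each of the 6 mice. The sample labels gave the group and number of each mouse. Per the labels and methods, STAR was run against GRCm39 and RSEM then gave estimated gene counts. The authors deposited these after TMM scaling, so each deposited signal is an estimated count scaled to library size (CPM). The deposited values are not divided by transcript length. Between 84.6% and 87.1% of the values of a library from 0.02 to 1 CPM were whole multiples of the value of 1 count (tolerance 0.02 of a count), which gave the estimated totals. Intervals and floors cover counting error only.

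Since the deposited signal is scaled, the model was limma 3.58.1 in R 4.3.3, fitted on log2(value + 0.1) with an intensity trend, over the 16670 genes with at least 0.1 CPM in at least 3 libraries. Benjamini-Hochberg adjustment ran over all of them, and a call needed an adjusted *P* under 0.05 and an absolute log2FC above 0.25. Limma-voom on counts recovered from these steps was an alternative, beside other filters, pseudocounts and scalings and leaving out each mouse. The script was tested on simulated data.

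The chains, their classes and the lists of partner and marker genes were chosen with earlier results of these data known. Every chain but 1, which is not reported here and entered only the fit over all genes, is accounted for. Of each partner list, the called genes or otherwise the 2 with the smallest *P* are named. Positions are from GENCODE vM39 and levels per kb use its canonical transcripts. The listed ligands *Vtn*, *Spp1* and *Madcam1* are not among the 18049 genes of the crypt RNA-Seq table used here, so they could not be tested. The other assays of the study were not used here. Figures were drawn with matplotlib 3.10.9.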

Additional observations from a re-analysis of the deposited data

How the results depend on the processing

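The count of 1 called chain, and of 1 epithelial and 0 other chains, was the same under scaling to library totals, other filters and pseudocounts, robust empirical Bayes, limma-voom on recovered counts, and without any 1 of the 6 mice. Without the intensity trend it was 0 of the 33 chains and 0 of the 7 epithelial chains, and all genes then gave 9 higher and 7 lower calls in place of 83 and 24. The numbers did not pair the mice (correlations of same-numbered mice 0.0322, -0.126 and -0.119). With the replicate number as a block, 1 chain stayed called (*Lama3*, adjusted *P* = 0.0259), all genes gave 23 higher and 10 lower calls, and *Fn1* was at an adjusted *P* of 0.109. Leaving out 1 mouse at a time gave *Lama3* adjusted *P* values of 0.00669 to 0.0310 and *Fn1* values of 0.0221 to 0.145.

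Scaling to library totals moved the median log2FC of all genes to -0.12, gave 83 higher and 178 lower calls over all genes in place of 83 and 24, and called *Agrn* lower (-0.37, adjusted *P* = 0.0306). It turned the sign of *Itga1* (-0.047), *Itgav* (-0.059), *Itgb3* (-0.10), *Itgb4* (-0.022) and *Itgb5* (-0.054), and a pseudocount of 0.01 that of *Itgb3* (-0.0066). None of these 5 was called. Leaving out 1 mouse at a time turned the sign of uncalled chains, with log2FC of -0.12 to 0.36 for *Itga1*, -0.15 to 0.061 for *Itga3*, -0.15 to 0.079 for *Itga5*, -0.48 to 0.36 for *Itga8*, -0.064 to 0.24 for *Itgav*, -0.091 to 0.033 for *Itgb1*, -0.43 to 0.27 for *Itgb3*, -0.020 to 0.21 for *Itgb4*, -0.29 to 0.051 for *Itgb7*, -1.12 to 0.24 for *Lama2* and -0.10 to 0.48 for *Lama5*. The cause was not tested. Without GSK503 mouse 3 the median over the 12 stromal chains went from -0.26 to -0.46. *Lama1*, at its floor of 3 counts, was then at least 17.3-fold lower than the control mean. As it was already the lowest of the 12, setting it at that floor could not move the median. With 3 mice a group, a *P* that misses the threshold does not show that a chain was the same.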
